A study of Mus musculus with 3 samples.

Results

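The methylated regions of epididymal fat from mice on a high-fat diet with folic acid (FAD) were set against those of mice on a normal diet (ND). The regions were the autosomal peaks from MeDIP-seq, an assay that sequences the DNA fragments caught by an antibody to methylated cytosine and calls the enriched stretches as peaks: 90352 FAD peaks and 96063 ND peaks, out of 332157 peaks in the 3 libraries of the study. Each FAD peak was paired with the ND peaks that it overlapped by at least 1 bp. All animals were male C57BL/6J mice, put on their diets at 6 weeks of age and sampled at 16 weeks. The ND mice received 10% of their energy as fat, the FAD mice 60% together with folic acid at 20 μg/mL in the drinking water, and the third group (HFD) the same 60% without folic acid. The diets thus differ in fat and in folic acid at once, and between FAD and ND these cannot be told apart. There was 1 library per diet, and the labels do not say whether it came from 1 animal or a pool, so no difference below has a replicate check and none was tested. Epididymal fat holds adipocytes with leukocytes, endothelial cells, fibroblasts and mesothelium, and in bulk tissue another mix of cells and another methylation state per cell cannot be told apart.

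DNA methylation in mammals sits mainly on cytosines followed by guanine (CpG). Most CpG-rich promoters are unmethylated in somatic tissue, with exceptions at germline genes and imprinted regions, while gene bodies and the sequence between genes are largely methylated. Folate carries the carbon units from which homocysteine is turned into methionine and then into S-adenosylmethionine, the methyl donor of the DNA methyltransferases.

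The FAD list covered 46.1 Mb with a median peak width of 445 bp, and the ND list 55.9 Mb with 504 bp. The HFD list was longer, with 130093 autosomal peaks over 85.2 Mb. Every peak carried the authors' own score, from 50 upwards, whose scale is not stated. It was used to rank and select peaks within a list, with the rank as a percentile and 100 the highest. Scores of different libraries are printed side by side as deposited. Their sizes cannot be compared between libraries, because scale and depth are unknown. Ranks were compared between lists of equal length, made from the 90352 FAD peaks and the 90352 ND peaks with the highest scores, which drops ND peaks with a score under 54.79. Read depth is unknown, and the intervals below are 95% intervals that cover counting over peaks only.

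Promoters show what kind of sequence lay under a peak in 1 library and not in the other. Of 20085 RefSeq promoters (250 bases before to 50 after a start, assembly GRCm38.p6) of 16457 autosomal genes, 318 were overlapped by a peak in both libraries. A peak in FAD and not in ND covered 82 (0.408%), and one in ND and not in FAD covered 169 (0.841%). The promoters with a peak were poorer in CpG than the rest, with a median of 9 CpG in 300 bases where both libraries had a peak and 7 in each of the other groups, against 14 over all promoters. Promoters with 15 or more CpG made up 48.1% of all, 22.0% (14.4 to 32.1%) of those with a peak in FAD alone and 10.1% (6.38 to 15.5%) of those with a peak in ND alone, and the last 2 intervals overlap. The 250 bases before the start are shown for 7 genes, 5′ to 3′ on the gene's strand in build GRCm38.p6, with every CpG in capitals, because they span the range from dense to sparse CpG:
Mtnr1b, chr9:15874557-15874806, minus strand: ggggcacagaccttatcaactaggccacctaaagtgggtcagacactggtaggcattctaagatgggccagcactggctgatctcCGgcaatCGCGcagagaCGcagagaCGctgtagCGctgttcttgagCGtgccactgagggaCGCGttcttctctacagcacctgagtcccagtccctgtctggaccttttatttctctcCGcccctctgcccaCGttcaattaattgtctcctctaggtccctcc
Smarca5, chr8:80739460-80739709, minus strand: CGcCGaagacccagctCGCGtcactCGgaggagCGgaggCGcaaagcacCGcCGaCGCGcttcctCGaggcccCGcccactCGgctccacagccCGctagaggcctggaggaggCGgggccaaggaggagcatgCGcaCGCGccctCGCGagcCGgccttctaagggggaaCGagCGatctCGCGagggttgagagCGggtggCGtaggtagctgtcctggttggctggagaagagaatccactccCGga
Lep, chr6:29059971-29060220, plus strand: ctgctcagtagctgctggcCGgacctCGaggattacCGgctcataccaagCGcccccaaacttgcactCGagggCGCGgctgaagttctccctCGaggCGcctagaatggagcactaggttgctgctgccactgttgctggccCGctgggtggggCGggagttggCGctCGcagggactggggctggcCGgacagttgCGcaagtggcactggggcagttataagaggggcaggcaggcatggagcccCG
Uts2, chr4:150996847-150997096, plus strand: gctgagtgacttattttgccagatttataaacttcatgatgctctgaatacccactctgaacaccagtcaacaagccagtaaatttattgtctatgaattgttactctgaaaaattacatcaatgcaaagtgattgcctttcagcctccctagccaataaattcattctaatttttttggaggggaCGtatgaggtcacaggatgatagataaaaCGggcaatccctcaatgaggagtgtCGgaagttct
Csl, chr10:99759659-99759908, minus strand: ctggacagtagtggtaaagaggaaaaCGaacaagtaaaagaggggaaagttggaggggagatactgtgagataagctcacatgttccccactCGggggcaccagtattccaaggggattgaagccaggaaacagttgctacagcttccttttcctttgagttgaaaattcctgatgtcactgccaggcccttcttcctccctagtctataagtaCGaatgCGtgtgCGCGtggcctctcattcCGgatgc
Trp73, chr4:154097174-154097423, minus strand: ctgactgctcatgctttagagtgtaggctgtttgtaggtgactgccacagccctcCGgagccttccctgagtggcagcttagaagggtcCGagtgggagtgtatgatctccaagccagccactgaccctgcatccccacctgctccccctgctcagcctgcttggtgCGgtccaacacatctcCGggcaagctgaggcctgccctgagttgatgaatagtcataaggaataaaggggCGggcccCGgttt
D1Pas1, chr1:186967166-186967415, plus strand: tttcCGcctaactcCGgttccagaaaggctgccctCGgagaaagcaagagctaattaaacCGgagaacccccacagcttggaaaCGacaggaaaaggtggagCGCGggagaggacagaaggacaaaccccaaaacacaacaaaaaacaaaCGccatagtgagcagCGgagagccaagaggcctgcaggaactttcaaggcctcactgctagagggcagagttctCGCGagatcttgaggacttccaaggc

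Mtnr1b, which encodes a melatonin receptor, had the FAD peak with the highest score over a promoter that had no ND peak within 5000 bp. That peak (chr9:15874357-15874823, score 152) spanned the printed stretch with its 11 CpG, ND peaks stayed 24815 bp or more from the promoter, and HFD had a peak there with a score of 303. Smarca5, the gene of a chromatin-remodelling ATPase, is the CpG-dense example with 29 CpG in the stretch. Its FAD peak scored 106 and its HFD peak 83.0, and the nearest ND peak lay 38247 bp away. Pramel13 (FAD score 109) and Apobec2 (104), which belongs to the family of cytidine deaminases, followed. Lep, the leptin gene, is printed because it is an adipocyte gene and was chosen after its values were seen. Its 16 CpG lay under a narrow FAD peak of 358 bp with a score of 56.1, close to the minimum of 50, and the nearest ND and HFD peaks were 2306 and 2124 bp from the promoter.

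In the other direction Uts2, which encodes the peptide hormone urotensin 2, had an ND peak with a score of 228 and the nearest FAD peak 11866 bp away, over a stretch with 3 CpG. Csl (ND score 139, nearest FAD peak 19386 bp away), Stpg4 (126, 5381 bp) and Trp73, the gene of a p53 relative (113, 7938 bp), came next. HFD had a peak over the promoters of Uts2, Csl and Stpg4, with scores of 134, 167 and 121, and none over Trp73. D1Pas1, a germ-cell RNA helicase gene with 11 CpG in its stretch, and the vomeronasal receptor gene Vmn2r29 had the highest mean rank among promoters covered in both libraries. D1Pas1 scored 523 in FAD, 771 in ND and 1027 in HFD, with ranks of 98.6 and 99.6 within the full FAD and ND lists.

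MicroRNA hairpins were read in the same way. Of 919 autosomal RefSeq hairpins, 39 were overlapped by a peak in both libraries, 10 (1.09%) in FAD and not in ND, and 24 (2.61%) in ND and not in FAD. Peaks of the other library lay over 5000 bp away for 3 of the 10 and 7 of the 24. The mature sequences of 8 arms are given with the seed (bases 2 to 8) in capitals, chosen after the values were seen to show some of the hairpins that lay far from any peak of the other library and a neighbouring pair of an imprinted cluster:
miR-6899-5p: aGCAGAACgcagcgggcauga
miR-7078-5p: uGUGGGUGguaggagacgcu
miR-26a-5p: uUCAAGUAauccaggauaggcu
miR-194-5p: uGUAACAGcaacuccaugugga
miR-215-5p: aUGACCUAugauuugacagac
miR-682: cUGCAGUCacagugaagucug
miR-127-3p: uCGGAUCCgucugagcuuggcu
miR-431-5p: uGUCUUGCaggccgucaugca
No seed is shared among these 8. Mir6899 had a FAD peak with a score of 93.6, an HFD peak with 87.1, while ND peaks came no closer than 30262 bp, and Mir7078 had a FAD peak with 73.0 and no ND peak closer than 5668 bp. On the ND side, Mir682 scored 121 (nearest FAD peak 16434 bp away) and Mir26a-2 scored 75.5 (11929 bp). Mir194-1 and Mir215 are neighbours under the same ND peak of 555 bp with a score of 58.3, so they count as 1 region. Mir127 and Mir431 lie in the imprinted Dlk1-Dio3 cluster on chromosome 12, between positions 109590447 and 109592915. Mir431 had an ND peak (56.5) and Mir127 a FAD peak (81.0), and HFD had a peak at neither. For each hairpin the nearest peak of the other library was the one over the other hairpin (1973 and 2148 bp away). Both distances thus describe the same gap. The leukocyte microRNA gene Mir142 and Mir675, the microRNA of H19, were marked in ND with scores of 247 and 125, but a FAD peak ended 16 and 26 bp from the hairpin, so these are shifted edges.

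Of the FAD peaks, 74.1% (73.8 to 74.4%) overlapped an ND peak, and 69.2% (68.9 to 69.5%) of the ND peaks overlapped a FAD peak. Unpaired were 23382 FAD peaks (25.9%) and 29581 ND peaks (30.8%). With lists of equal length the shares paired were 72.2% and 71.6%. Equal length largely holds the shares of both directions together, since the 62518 1:1 pairs count alike on each side. Pairing depended on score. In the lowest-scoring decile 41.9% of FAD peaks and 32.8% of ND peaks had a partner, and in the highest 99.8% and 99.99%. In the equal-length lists the lowest decile gave 38.1% and 36.6%. Of 67611 overlaps, 184 (0.272%) were shorter than 50 bp. With a reciprocal overlap of 50% required, the share of FAD peaks paired was 68.3% and that of ND peaks 64.2%. Near misses were few, since 106 unpaired FAD peaks (0.453%) had an ND peak within 50 bp. An ND peak met 2 or 3 FAD peaks in 1121 cases, and a FAD peak met 2 or 3 ND peaks in 638.

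**Figure D1:**
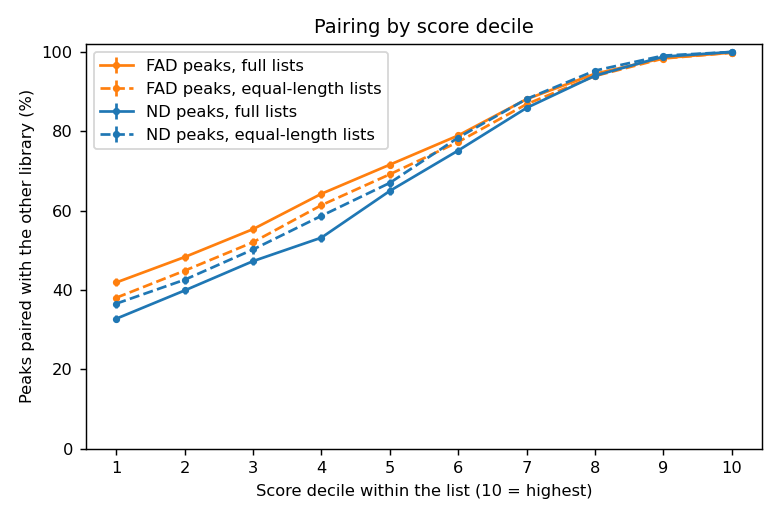
Share of peaks with a partner in the other library (%) by score decile within each list, for FAD (orange) and ND (blue) peaks, with full lists as solid and equal-length lists as dashed lines. Points are shares and bars are Wilson 95% intervals; every line rises from under 42% in the lowest decile to over 99% in the highest.

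Peaks shared by both libraries were narrower in FAD. Among 64212 pairs in which each peak had exactly 1 partner (1:1 pairs), the median width was 465 bp in FAD and 536 bp in ND. The median FAD width was 0.887 of the ND width, a log2 ratio of -0.17, and 70.5% (70.2 to 70.9%) of pairs were narrower in FAD. At least 1.5-fold narrower in FAD were 11131 pairs (17.3%), and at least 1.5-fold wider were 2074 (3.23%). The FAD peak lay wholly inside the ND peak in 45.4% of pairs and the reverse held in 10.6%. In 44.0% both edges were shifted the same way, so that 1 lay inside and the other outside. Over all pairs, the left and the right edge of the FAD peak each lay a median of 23 bp inside that of the ND peak. Midpoints were a median of 44.5 bp apart. The 2 edges thus had the same median over all pairs, which does not mean that single regions were narrowed evenly on both sides.

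**Figure D2:**
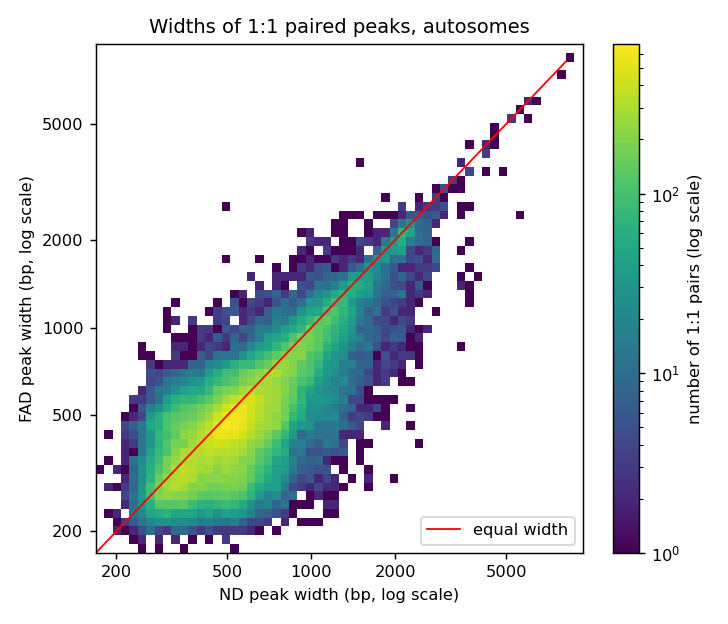
Width of the FAD peak against that of the ND peak (bp, both axes on a log scale) for the 1:1 pairs, coloured by the number of pairs. The red line marks equal width, and most pairs lie below it, 70.5% of 64212.

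This ratio varied little over the genome. By chromosome the median log2 width ratio ran from -0.18 on chromosome 3 to -0.16 on chromosome 13. Pairs at the ends of protein-coding genes (2614 pairs) had a median of -0.18, those elsewhere inside gene records (34631) -0.18, and those between genes (26967) -0.17. It was further from 0 in short genes than in long ones, with -0.22 (-0.24 to -0.20) in records under 10 kb, -0.19 from 10 to 50 kb, -0.18 from 50 to 200 kb and -0.16 (-0.17 to -0.15) over 200 kb. The widest regions differed least. Pairs with a mean width of 1500 bp or more had a median of -0.10, although 79.1% of them were narrower in FAD, and pairs of 500 to 800 bp had -0.20. By mean score rank, the highest decile had -0.13 and the fourth -0.20.

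Score ranks are percentiles within lists of equal length, so a middle of the rank differences near 0 is largely set by the method. In the equal-length lists, 62518 1:1 pairs had a median rank difference of -0.158 points (-0.249 to -0.0764). The rank was at least 20 points higher in FAD in 9642 pairs (15.4%) and at least 20 points lower in 9987 (16.0%), together 31.4%. Across pairs, the Spearman correlation of the ranks in both libraries was 0.719 and that of the widths 0.680, as a description over regions of 2 libraries. Width and rank differences went together little (Spearman -0.0683): pairs at least 20 points higher in FAD were narrower there as well, with a median log2 ratio of -0.22, and those at least 20 points lower had -0.17.

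**Figure D3:**
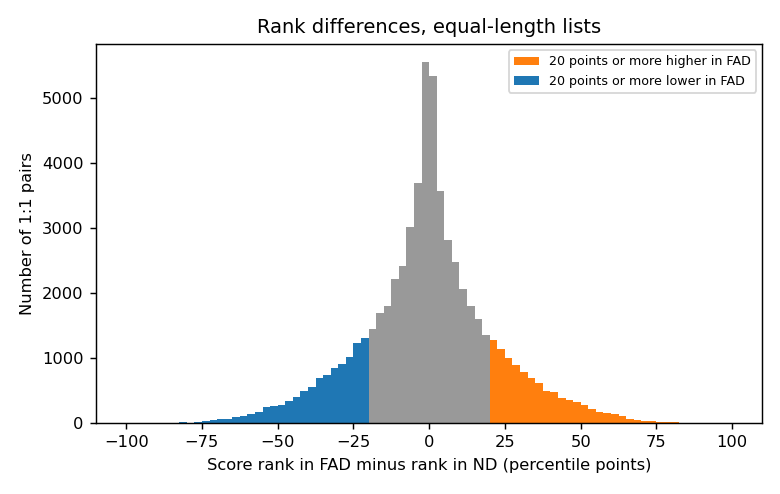
Number of 1:1 pairs by the difference in score rank, FAD minus ND, in percentile points in bins of 2.5 points. Orange and blue mark pairs at least 20 points higher (9642) or lower (9987) in FAD; both tails are of like size.

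Single gene ends had large shifts in rank. Those named are the extremes among gene-end pairs of 3055 genes. The weaker peak of each scored 61.1 or less, near the lowest score of its list (50 in FAD and 54.79 in ND). Snx32, a sorting nexin gene, held the largest gain, with a FAD peak of score 365 (rank 95.6) against an ND peak of score 59.0 (rank 5.79) and an HFD peak of score 607. Trio, which encodes a guanine nucleotide exchange factor of small GTPases, followed with scores of 227 in FAD, 60.0 in ND and 140 in HFD. A single region at the neighbours Dpm1 and Mocs3 scored 189 in FAD and 61.1 in ND. Another, at Gcn1 and Rplp0, a gene of the amino acid response and a ribosomal stalk gene, scored 166 and 59.0. The Trio and Gcn1 peaks were narrower in FAD (234 against 508 bp and 302 against 608 bp) although their rank was higher. In reverse, Polr3a, the gene of the largest subunit of RNA polymerase III, scored 50.9 in FAD and 226 in ND, with 255 in HFD. Aldoart2 scored 50.8 in FAD against 173, Crocc 55.3 against 191, and Slc16a11, a monocarboxylate transporter gene, 53.0 against 164. A region shared by Btbd10 and Arntl, the core clock gene of BMAL1, scored 60.7 in FAD, 228 in ND and 127 in HFD.

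Widths at strong gene-end pairs ranged further than the median. Among pairs with both peaks in the upper part of their list (above the 50th percentile), Plxnb1, a semaphorin receptor gene, had a FAD peak of 494 bp inside an ND peak of 1839 bp, with 1649 bp in HFD. Phf21b (508 against 1449 bp), Iffo1 (199 against 569 bp), Olfr368 (255 against 707 bp), Tppp3 (455 against 1207 bp) and Nrep (348 against 916 bp) were the next narrowest by ratio. Wider in FAD were Trim25, a ubiquitin ligase gene of antiviral signalling (795 against 251 bp, and 1024 bp in HFD), and Eci3 and Eci1, which encode enoyl-CoA isomerases of fatty acid oxidation (520 against 252 bp and 570 against 310 bp). Defb12 (695 against 365 bp), Tal2 (622 against 333 bp) and Mbd3l2 (503 against 274 bp) completed the 6. Rank was lower in FAD than in ND for all 6 genes with a wider peak and for 5 of the 6 with a narrower one, Iffo1 being the exception, so both sides were alike in this.

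Unpaired peaks were weak and narrow in both libraries. Their median score was 68.1 in FAD and 69.9 in ND, against 116 and 128 for paired peaks, and 78 peaks of each library had a score of 200 or more. Median widths were 399 and 448 bp. An HFD peak overlapped 57.7% of the unpaired FAD peaks and 60.1% of the unpaired ND peaks, against 94.5% and 94.6% of the paired ones. The nearest peak of the other library lay between 5000 and 50000 bp away for 53.8% of them in FAD and 56.6% in ND, and within 500 bp for 7.24% and 6.83%.

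The 2 lists differed in where the unpaired peaks lay. In FAD the share unpaired was alike at gene ends (25.4%), elsewhere in gene records (26.2%) and between genes (25.6%). In ND it was 32.8% (31.3 to 34.2%) at gene ends and 32.2% in records, against 28.7% (28.3 to 29.2%) between genes. With equal-length lists the ND shares were 30.5%, 29.9% and 26.2%, and those of FAD 27.8%, 28.1% and 27.4%. In FAD the share unpaired was lower in short genes, with 20.9% (19.3 to 22.6%) in records under 10 kb and 28.0% (27.2 to 28.8%) in records over 200 kb. ND had 30.0% and 32.2% in these classes, so the spread by gene length was smaller there.

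The strongest unpaired FAD region lay in Lmf1, which encodes the factor that matures lipoprotein lipase (chr17:25651249-25652299, score 532, rank 98.7 within the full FAD list). No ND peak lay within 2760 bp, and HFD had a peak there with a score of 744. Wrn, the Werner helicase gene (519), and Klhl18 (434) followed, with ND peaks at 6273 and 3068 bp and HFD scores of 406 and 335. In ND the strongest lay in Il23r, the interleukin 23 receptor gene (chr6:67461268-67461587, score 329, rank 92.7 within the full ND list), with the nearest FAD peak 8547 bp away and an HFD score of 164. A region at the ends of Rer1 and Morn1 (277) and one in Lrp4 (275) came next, with HFD scores of 94.8 and 182. These 3 ND regions spanned 320, 254 and 283 bp, less than the 10th percentile of ND peak widths (322 bp), whereas the FAD regions spanned 1051, 676 and 668 bp. All 6 regions thus had a peak in the HFD library.

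At the level of genes, genes were called marked where at least 1 peak touched the stretch between 2000 bp outside and 500 bp inside either end of the record, here its window. Of 20665 autosomal protein-coding genes, 4225 (20.4%) were marked in FAD and 4789 (23.2%) in ND. Marked in FAD and not in ND were 907 (4.39%), in ND and not in FAD 1471 (7.12%), and in both 3318 (16.1%). With lists of equal length the counts were 997 (4.82%) and 1308 (6.33%). With no peak of the other library allowed within 5000 bp of a window they were 290 (1.40%) and 508 (2.46%), which moves both by over 1.5 times. HFD also marked 66.8% of the genes marked in FAD and not in ND, 70.3% of those marked in ND and not in FAD, and 11.1% of genes marked in neither.

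Fermt3 and Stip1 shared the FAD peak with the highest score at a gene end where ND peaks were absent for 5000 bp around the windows (chr19:7020818-7021048, score 188). Fermt3 encodes kindlin-3, an integrin activator of blood cells, and Stip1 a co-chaperone of heat shock proteins, and their records lie next to each other. The peak spanned 231 bp, below the 10th percentile of FAD peak widths (285 bp), and HFD scored 101 there. Gimap9, an immune-associated GTPase gene, had a FAD peak of 626 bp with a score of 161 and an HFD peak with 139. Cntd1 and Coa3, the latter an assembly factor gene of cytochrome c oxidase, shared a region with a score of 154 in FAD and 157 in HFD. Defb47, a beta-defensin gene, and Slc24a3, a sodium-calcium exchanger gene, also scored 154 in FAD, with 139 and 107 in HFD, and Mtnr1b (152) came last of the 8.

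P2ry6, the gene of a receptor for uridine nucleotides, led the other direction with an ND peak of 1030 bp (score 260) and the nearest FAD peak 6046 bp from it. Gpr151, an orphan receptor gene, had an ND score of 255 and an HFD score of 196, with the nearest FAD peak 20740 bp away. The Uts2 region (228) also covered the end of the neighbouring clock gene Per3. Naaladl2 (227) held 22 FAD peaks and 27 ND peaks within its record and 2000 bp on each side. The olfactory receptor genes Olfr149 (212) and Olfr601 (171), the trace amine receptor gene Taar1 (172) and Lrrc17 (165) completed the 8. Gpr151, Olfr149, Olfr601 and Taar1 are short records that held 1 ND peak and 0 FAD peaks each. In HFD a peak overlapped each of the 8 ND peaks.

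The gene lists were read against these background shares of 4.39% and 7.12% (see the plot of gene lists). Genes of the folate and methionine cycles were marked in FAD and not in ND at 5 of 61 (8.20%) and in ND and not in FAD at 7 of 61 (11.5%), both above the share of all genes, and at 6 and 6 with lists of equal length. On the FAD side stood Bhmt2 (score 90.8), whose product methylates homocysteine, and Mmab of cobalamin metabolism (88.2). With them were Chdh, the choline dehydrogenase gene (65.9), Gldc, which acts in glycine cleavage (64.6), and Mtr, whose product is methionine synthase (54.8). ND peaks lay within 5000 bp of the windows of all 5, and the Mtr peak overlapped an ND peak that stopped 161 bp short of the window. The ND side included the proton-coupled folate transporter gene Slc46a1 (97.5), Aldh1l1 (75.8), the mitochondrial folate carrier gene Slc25a32 (62.5), Mthfsl (60.2), Cbs, the gene of cystathionine synthesis (59.1), and Amt, also of glycine cleavage (51.7). For Aldh1l1, Amt and Mthfsl every FAD peak was over 5000 bp from the windows. HFD had a peak at the region of Bhmt2, Chdh and Mmab on the FAD side, and of Aldh1l1, Amt and Slc46a1 among those named on the ND side. All 12 scores lay below the median score of their own list (96.8 in FAD and 100.35 in ND), in the range where fewer peaks had a partner.

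Folate genes marked in both libraries differed in width in either direction. At the ends of these genes lay 11 1:1 pairs, with log2 width ratios from -0.53 at Gnmt, which encodes a methyltransferase that uses up S-adenosylmethionine (853 bp in FAD and 1233 bp in ND), to 0.63 at Mthfd2l. Mthfd2l had the highest scores (322 in FAD and 639 in ND, with 506 in HFD). Its ranks were 94.1 in FAD and 98.9 in ND, and its FAD peak was the wider one, 1043 against 674 bp. The reduced folate carrier gene Slc19a1 had the largest gain in rank, from 22.1 in ND to 48.3 in FAD, at a region that it shares with Col18a1. Mthfd2, of the mitochondrial folate pathway, had the largest loss, from 50.3 to 27.3. Over all 101 pairs in records of the list the median log2 width ratio was -0.22, against -0.18 over the 31775 pairs in all protein-coding records. DNA methylation genes gave 2 of 32 (6.25%) marked in FAD and not in ND, with Apobec2 (104) the higher in score, and 0 in reverse. The shares over all genes were 4.39% and 7.12%. Dnmt1, the maintenance methyltransferase gene, had a pair with scores of 125 in FAD and 160 in ND (ranks 65.5 and 72.4).

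**Figure D4:**
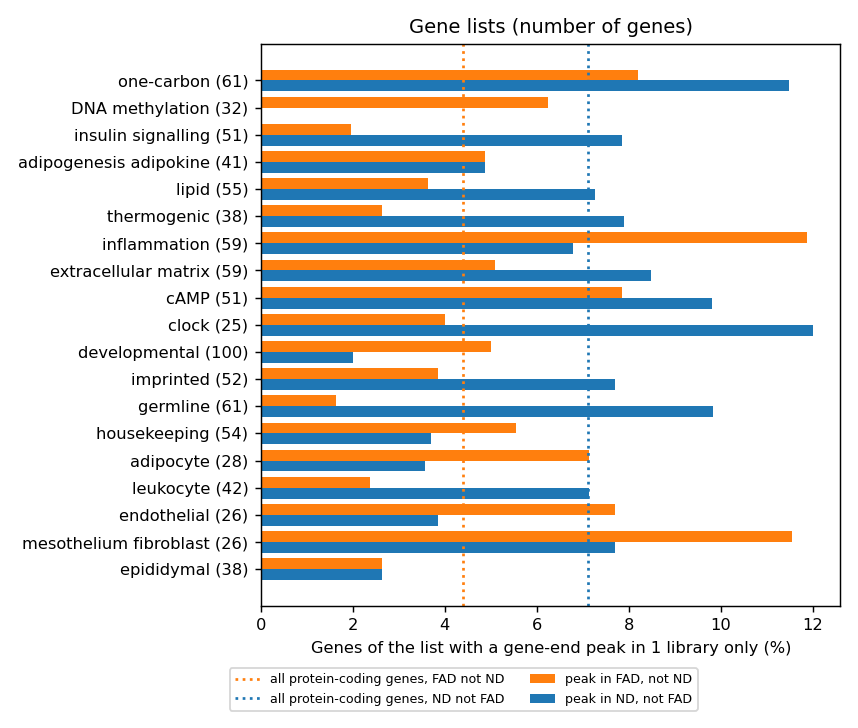
Share of each gene list (number of genes in brackets) with a gene-end peak in FAD and not ND (orange bars) or in ND and not FAD (blue bars), in %. Dotted lines give the shares over all protein-coding genes, 4.39% and 7.12%; a bar of the smaller lists stands for 1 to 3 genes.

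Genes of insulin signalling were marked in FAD and not in ND at 1 of 51 (1.96%) and in reverse at 4 (7.84%). Over all genes the shares were 4.39% and 7.12%. The 1 was Irs1, the gene of insulin receptor substrate 1, with a FAD peak of 247 bp and a score of 98.0 with the nearest ND and HFD peaks 10565 and 10337 bp away. Trip10 (94.3), Foxo3, a transcription factor gene restrained by insulin (77.1), Pik3cb of the kinase that insulin receptors recruit (65.3) and the imprinted Igf2r (63.3) stood on the ND side, each with an HFD peak. Akt2, the main Akt gene of insulin-sensitive tissues, had a pair at its end with a rank of 72.5 in FAD and 25.8 in ND, although the FAD peak was narrower (350 against 500 bp). Ptpn1, a phosphatase gene that turns insulin signalling off, had ranks of 55.6 and 18.4. Igf1 went the other way, with ranks of 65.3 and 89.2.

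Among adipogenesis and adipokine genes, 2 of 41 (4.88%) were marked in FAD and not in ND and 2 (4.88%) in reverse. Over all genes the shares were 4.39% and 7.12%. On the FAD side stood Retn, the resistin gene (68.1), and Lep (56.1). The ND side had the adiponectin receptor gene Adipor2 (146) and Ebf2 (79.6), a factor of brown fat identity. No ND peak lay within 17348 bp of the Retn peak, and no FAD peak within 11989 bp of the Adipor2 peak. Adipoq, the adiponectin gene, kept a peak in both libraries, with scores of 123 and 109 and widths of 522 and 736 bp. Klf5, a regulator of adipocyte differentiation, had ranks of 70.7 in FAD and 11.9 in ND. Serpina12, the vaspin gene, had 5.36 and 47.1.

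Lipid genes gave 2 of 55 (3.64%) on the FAD side and 4 (7.27%) on the ND side, near the 4.39% and 7.12% of all genes. The 2 were Mgll, the monoglyceride lipase gene (71.6), and Mlxipl, the gene of the glucose-responsive factor ChREBP (71.3). On the ND side, Lpl, the lipoprotein lipase gene (84.7), had no FAD peak within 14798 bp. Acaca (54.5), Agpat1 (52.4) and Acadvl (51.6) dropped out of the ND list at equal length. Gpihbp1, which anchors lipoprotein lipase in capillaries, and Pnpla3 had ranks of 63.1 and 73.8 in FAD against 8.03 and 21.4 in ND. Pck1, of glyceroneogenesis, had 56.4 and 81.4. The thermogenic list gave 1 of 38 (2.63%) on the FAD side, the Hox gene Hoxc9 (136), which is read with its family below. It gave 3 (7.89%) on the ND side, Ucp1, the uncoupling protein gene of brown fat (121), Ebf2 and Ckmt2 (54.3). The nearest FAD peak lay 14786 bp from the Ucp1 peak, and HFD had a score of 116 there.

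Inflammation genes were marked in FAD and not in ND at 7 of 59 (11.9%), on 6 distinct peaks, and in ND and not in FAD at 4 (6.78%). The shares over all genes were 4.39% and 7.12%, so the ND share was near that of all genes. Fos, an immediate early gene, scored 276 in FAD, but its peak overlapped an ND peak that stopped 102 bp short of the window. The chemokine genes Ccl3 and Ccl4 shared a FAD peak (73.1), and Ccl5 (91.7), Mapk8, the JNK1 gene (75.2), Nfkb1 (71.4) and Tlr9 (69.8) had their own. Of the 7, Ccl5 and Mapk8 were those with every ND peak over 5000 bp from their windows. On the ND side stood Itgax (84.0), Nos2 (65.6), Trem2 (64.7) and Cxcl10 (50.5). Among pairs, the macrophage gene Cd163 had a score of 364 in FAD and 179 in ND (ranks 95.5 and 76.9), and Tlr2 60.0 and 132 (ranks 12.5 and 63.1).

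Extracellular matrix genes gave 3 of 59 (5.08%) on the FAD side and 5 (8.47%) on the ND side, against 4.39% and 7.12% of all genes. The 3 were Eln, the elastin gene (90.5), Col8a1 (60.2) and Timp2 (53.1). Of the 5 on the ND side, Col6a2 (346), Fbn1, the fibrillin gene (185), and Tgfb3 (120) were shifted edges. They overlapped FAD peaks that stopped 8, 25 and 44 bp short of the window. The cAMP genes gave 4 of 51 (7.84%) on the FAD side, led by Creb3l1 (212), Pde10a (76.4) and Crtc1 (56.4). They gave 5 (9.80%) on the ND side, led by the adenosine receptor gene Adora1 (162), Gnas, of the stimulatory G protein (91.1), and Rapgef4 (72.4). A FAD peak lay 73 bp from the Rapgef4 peak. Clock genes gave 1 of 25 (4%) on the FAD side, Csnk1e (97.1), and 3 (12%) on the ND side, Per3 (228), Nfil3 (109) and Per2 (63.0). The Nfil3 peak overlapped a FAD peak that stopped 53 bp short of the window. Dbp (ranks 59.6 in FAD and 50.5 in ND) and Bhlhe41 (49.1 and 34.6), which are clock output and repressor genes, had pairs of higher rank in FAD, and the other pairs of clock genes, at Arntl2 (53.6 and 78.4) and Arntl (13.4 and 84.7), were of lower rank there.

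Germline genes were marked in both libraries at 28 of 61 (45.9%), against 16.1% of all genes. In FAD alone stood Zp2 (120, 1.64% of the list), and in ND alone 6 (9.84%), against 4.39% and 7.12% of all genes. The 6 were led by Zfp42 (521, a shifted edge with a FAD peak that stopped 8 bp short), Nanog (93.0) and Dmc1, the meiotic recombinase gene (84.3). Dmc1 had no FAD peak within 32603 bp of its ND peak. Msh4, a meiotic crossover gene, had ranks of 70.0 in FAD and 6.48 in ND, and Piwil4, of the piRNA pathway, 9.47 and 48.7. Imprinted genes were marked in both at 18 of 52, and in FAD alone at 2 (3.85%), Th (64.2) and Blcap (58.1). In ND alone 4 (7.69%) were marked, led by Slc22a2 (104), Gnas (91.1) and Igf2r (63.3). A region shared by the imprinted neighbours Peg10 and Sgce spanned 788 bp in FAD and 1835 bp in ND, and scored 157 in FAD, 292 in ND and 423 in HFD. Housekeeping genes gave Rab7 (145), Vcp (131) and Cdk7 (73.1) in FAD alone, and Gapdh (113) and Psmb2 (75.2) in ND alone, of 54 (5.56% and 3.70%). The Rab7 and Gapdh peaks overlapped a peak of the other library. The Gapdh peak is the ND peak of the Iffo1 pair given above, in which the FAD peak had the higher rank (80.3 against 54.3). An ND peak stopped 13 bp short of a Vcp window, although none lay within 18652 bp of the Vcp peak itself.

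Markers of the cell types that fat can hold were counted against the same background of 4.39% in FAD alone and 7.12% in ND alone. Mesothelium and fibroblast markers had 11.5% and 7.69%, endothelial markers 7.69% and 3.85%, adipocyte markers 7.14% and 3.57%, leukocyte markers 2.38% and 7.14%, and epididymal markers 2.63% in each, every share resting on 1 to 3 genes. Adipocyte markers gave 2 of 28 in FAD alone (Retn and Lep) and 1 in ND alone (Lpl). Leukocyte markers gave Cd2 (59.1) and, in ND, Itgax (84.0), Zap70 (73.2) and Flt3 (52.8) of 42, and endothelial markers Vwf (67.6) and Tek (61.2) and, in ND, Lyve1 (83.6) of 26. Mesothelium and fibroblast markers gave Pdgfrb (74.8), Wt1 (61.3) and Twist2 (56.4) and, in ND, Lrrn4 (102) and Lum (75.5) of 26, and epididymal markers Defb47 (154) and, in ND, Spint4 (70.5) of 38. Peaks do not measure expression, so these counts identify no cell type, and the part of cell mix in the results was not tested.

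Developmental regulators were marked in FAD and not in ND at 5 of 100 (5%) and in reverse at 2 (2%), against 4.39% and 7.12% of all genes. The 5 were Hoxc9 (136), Nkx2-2 (68.1), Wt1 (61.3), Hoxc10 (56.1) and Pax6 (55.8), and the 2 were Hoxa9 (191), a shifted edge, and Tbx18 (68.1). The Hox family as a whole, which sets position along the body axis, gave 6 of 39 genes (15.4%) in FAD and not in ND and 1 in reverse. Of the 6, 5 lie in the Hoxc cluster on chromosome 15: Hoxc11 (77.8), Hoxc10, Hoxc9, Hoxc6 (89.3) and Hoxc4 (122). The other was Hoxd3 (69.0). The Hoxc4 peak overlapped an ND peak that stopped 151 bp short of the window. The Hoxc9 peak spanned 1385 bp (chr15:102983364-102984748), with no ND peak within 33999 bp and an HFD peak scoring 74.1. Hoxc10 and Hoxc11 had no ND peak within 52856 and 60805 bp, and HFD had none within 17751 and 25700 bp. The 12 pairs at Hox genes also stood apart in width, with a median log2 ratio of 0.26 and 3 of the 12 narrower in FAD. Among them were a region at Hoxa3, Hoxa5 and Hoxa6 (1559 bp in FAD and 1018 bp in ND), 1 at Hoxc5 and Hoxc4 (736 and 457 bp) and 1 at Hoxb5 (691 and 460 bp). Hoxa7 was narrower in FAD (1070 and 1398 bp). Of the 19 lists and the 13 families counted, Hox was the one with a median above 0, a description that rests on these 12 pairs.

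Among other families, clustered genes shared peaks. Of 67 protocadherin genes, 24 (35.8%) were marked in ND and not in FAD and 2 in reverse, but the 24 rested on 7 distinct peaks, and most of the Pcdhg genes were marked by a single ND peak of 527 bp with a score of 68.6 at the end that their records share. Over all genes, 907 (4.39%) and 1471 (7.12%) genes rested on 846 and 1346 distinct peaks. Ribosomal protein genes gave 5 of 91 (5.49%) on the FAD side, near the share of all genes, and 13 (14.3%) on the ND side, each on its own peak. Rps6 (146), Rpl29 (132), Rpl7l1 (117), Rpl21 (116), Rps13 (114) and Rps2 (109) led the 13, and the 5 included Rps27 (99.3) and Rps29 (87.7). The Rps27 and Rpl29 peaks overlapped a peak of the other library. Solute carrier genes gave 20 and 38 of 362 (5.52% and 10.5%), the FAD share again near that of all genes. Potassium channel genes (Kcn) gave 7 and 4 of 92 (7.61% and 4.35%), and olfactory receptor genes 21 and 29 of 1104 (1.90% and 2.63%).

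Summed over whole records with 2000 bp on each side, the covered sequence was lower in FAD for most genes with many peaks. The same held for the whole equal-length lists, which covered 46.1 Mb in FAD and 53.0 Mb in ND. Among 1403 genes with at least 15 peaks in both libraries together, the median log2 ratio of covered bases in equal-length lists was -0.21, and 76.3% were less covered in FAD. Peak numbers were alike, with a median log2 ratio of 0. At least 1.5-fold more peaks in FAD were found in 60 genes (4.28%) and at least 1.5-fold fewer in 91 (6.49%). The genes named next were ranked by covered bases after the values were seen. Slc35f3 had 5 FAD and 10 ND peaks (1767 and 4877 bp), and Nfasc, the neurofascin gene, 5 and 10 (1621 and 4124 bp). Tiam2, the gene of an exchange factor of Rac, had 7 and 17, and Zfand3 6 and 12. More covered in FAD were Akap7, the gene of an anchor of protein kinase A (10 FAD and 5 ND peaks, 4409 and 2344 bp), Cachd1 (14 and 6), Adgrg6 (11 and 7) and Scfd2 (13 and 5). Tbc1d4, which encodes AS160, the Akt substrate that governs glucose transporter traffic, had 10 FAD peaks, 5 ND peaks and 11 HFD peaks, and covered 5259, 3251 and 7646 bp, with HFD cut to the same list length. Members of the fixed lists at the other end included Fn1, the fibronectin gene (3004 bp in FAD and 5345 bp in ND), Npas2 (2667 and 4667 bp), Mtor (3035 and 4834 bp) and Pik3cb (3188 and 5188 bp). Lama2 (4108 and 2653 bp) and the imprinted Snrpn (6085 and 4488 bp) were more covered in FAD.

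On a coarser scale the bins differed around a middle that the equal list length sets. With all 3 lists cut to equal length, in 1186 bins of 2 Mb with at least 60 peaks, FAD held a median of 50.2% of the peaks of both equal-length lists, from 38.6% to 61.8%. The lowest bin (chr2:176000001-178000000, 51 FAD, 81 ND and 42 HFD peaks) is a cluster of zinc finger genes: 15 of its 16 protein-coding genes have symbols starting with Zfp or of the form Gm with digits. Another cluster of Gm genes, on chromosome 14 (80 FAD and 57 ND peaks, 22 of 26 genes with such symbols), lay among the highest bins. Whether reads shared between gene copies bear on these counts was not tested. The next lowest, on chromosome 17 (27 and 42), holds Tiam2, Tfb1m and Nox3. The highest bin (chr12:26000001-28000000, 47 FAD, 29 ND and 42 HFD peaks) holds Rnf144a, Rsad2, Cmpk2 and Sox11, and a bin on chromosome 8 (37 and 25) holds Cdh11 alone. These bins are described without a test.

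**Figure D5:**
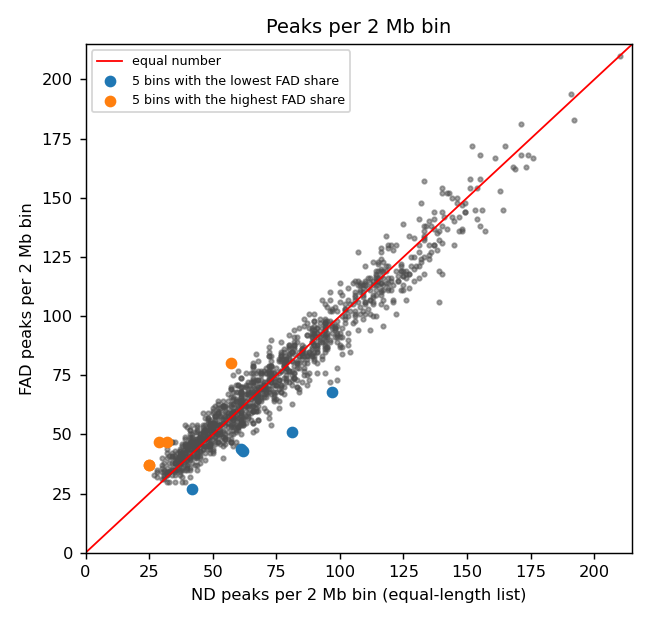
Number of FAD peaks against ND peaks of the equal-length list in each 2 Mb bin with at least 60 peaks (1186 bins, grey points). The red line marks equal numbers, and colours mark the 5 bins with the lowest FAD share (blue, from 38.6%) and the 5 with the highest (orange, up to 61.8%).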

How the data were processed

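MeDIP-seq peak lists of epididymal fat, 1 library per diet, were used as the authors deposited them, with samples grouped by the labels. Each library has 1 deposited list. The submitters' processing notes name the build mm10. The sources used here do not give the caller's settings, the aligner, the read depth or any pooling of animals. Each deposited peak carries a score whose scale the authors do not state, so it served for ranks and cutoffs within a list. Scores of different libraries are printed as deposited, and a missing peak can also come from lower depth. Per the labels' protocols, DNA came from a DNeasy kit and libraries from a TruSeq protocol.

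Autosomal peaks were paired by an overlap of 1 bp. Shares have Wilson intervals, and medians order-statistic intervals. Genes, promoters and microRNAs came from RefSeq tables of GRCm38.p6, whose gene table gives no strand, so windows lie at both ends of a record. The midpoint decided the feature of a peak. All 862 symbols of the 19 gene lists matched, 844 of them autosomal and protein-coding. The members, gene lists and rules were chosen with earlier results of these data known. The naming rule took, per direction, the 8 genes with the highest gene-end score and no other peak within 5000 bp, the 6 largest rank and 6 largest width differences, up to 3 members of each list and all folate genes, the 3 highest unpaired regions and 4 promoters, passing over Gm and Rik symbols. Some genes picked by it are not reported here. Further family and list members, pairs within lists, hairpins, records and bins were chosen after their values were seen. Widths, pairing and gene counts were recomputed with equal-length lists, stricter scores, a reciprocal overlap of 50%, joined peaks, sex chromosomes and other gene windows. The pairing code was tested on simulated lists and gave the same number of partners as bedtools for all 186415 peaks. Computation ran in bedtools 2.31.1 and Python 3.11.15 with matplotlib 3.10.9, scipy 1.17.1, pandas 2.3.3 and numpy 2.4.6.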

Additional observations from a re-analysis of the deposited data

Results flagged for a closer look

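Peaks on the sex chromosomes lay outside the comparison and are given as values. FAD held 2875 peaks on chromosome X and 2274 on chromosome Y, and ND held 3160 and 2309. On X, 80.3% of FAD peaks and 72.4% of ND peaks had a partner, with median widths of 535 and 606 bp. On Y the shares were 76.6% and 74.5%, with 488 and 576 bp, so the FAD peaks were narrower on both chromosomes as well.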

How the results depend on the processing

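With 1 library per diet, depth and diet cannot be told apart, and pairing was limited among weak peaks. No paired analysis was possible because each diet had 1 library. The median log2 width ratio kept its sign under all 6 alternatives, from -0.15 (reciprocal overlap of 50%) through -0.16 (score of 100 or more, and peaks above the median score) to -0.17 (joined peaks). The share of FAD peaks paired with ND came to 72.2% with equal-length lists, 78.5% at scores of 100 or more, 76.0% above the median score and 68.3% with reciprocal overlap, and that of ND peaks paired with FAD to 71.6% with equal-length lists, 71.1% above the median score, 64.2% with reciprocal overlap and 69.9% with joined peaks. Pairs narrower in FAD made up 71.3% at scores of 100 or more, 71.4% above the median score and 69.2% with reciprocal overlap. Rank shifts of 20 points or more stood at 30.8% at scores of 100 or more, 30.7% above the median score, 30.9% with reciprocal overlap and 30.8% with joined peaks. Genes marked in FAD and not in ND, and the reverse, numbered 476 and 853 at scores of 100 or more, 551 and 793 above the median score, 290 and 508 with no other peak within 5000 bp, and 388 and 593 at gene starts only, among genes with a promoter entry. Reciprocal overlap gives no value for gene counts. The remaining values stayed within the interval of the reported value or within 1.5 times the count, and the ND count was the larger in every setting run.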
